A study of Mus musculus with 2 samples.

Results

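The 8 genes described here encode subunits of Polycomb repressive complex 2 (PRC2), and they were taken by name from the 32228 genes counted: Ezh2, Ezh1, Eed, Suz12, Jarid2, Mtf2, Phf1 and Phf19. They were measured by single-cell RNA sequencing of CD45+ 7-AAD- immune cells sorted from the colonic lamina propria of C57BL/6 mice. One library came from WT mice and 1 from Ring1AKO mice, which lack the PRC1 ubiquitin ligase Ring1a (gene Ring1) in all tissues. All mice had colitis induced with dextran sulfate sodium (DSS) in the drinking water, so no library of untreated mice was analysed here. Per the labels the mice were 8 to 10 weeks old, and per the study's methods 5 mice were pooled in each library. With 1 library per genotype, the effect of the genotype and that of the library cannot be told apart, so ratios between them carry no test.

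PRC2 is the enzyme complex that methylates lysine 27 of histone H3, the mark of Polycomb silencing. Its catalytic subunit is either Ezh2, the more active form that is typical of dividing cells, or its paralog Ezh1, and the core is completed by Eed, which binds the methylated histone tail and stimulates the enzyme, and Suz12, the scaffold. Accessory subunits divide the complex into variants: Jarid2 belongs to PRC2.2, and the Polycomb-like proteins Mtf2, Phf1 and Phf19 bind DNA and belong to PRC2.1. In lymphocytes PRC2 is known for its part in germinal centre B cells and in the differentiation of T cells. PRC1, to which Ring1a belongs, ubiquitinates histone H2A and shares many targets with PRC2.

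On GRCm38 (GENCODE vM21) Ezh2 lay on chromosome 6 from 47530139 to 47595341 on the minus strand and Ezh1 on chromosome 11 from 101191115 to 101226463, also on the minus strand. Eed lay on chromosome 7 (89954654 to 89980983, minus strand) and Suz12 on chromosome 11 (79993106 to 80034123, plus strand). Jarid2 lay on chromosome 13 (44729474 to 44921643, plus strand), Mtf2 on chromosome 5 (108065674 to 108109004, plus strand), Phf1 on chromosome 17 (26933052 to 26937908, plus strand) and Phf19 on chromosome 2 (34893757 to 34914026, minus strand). Exons of Eed, Mtf2 and Phf1 overlapped exons of genes on the other strand that are also in the matrices, E230029C05Rik, Tmed5, and Cuta with AC144621.3. Exons of Ezh2 and Suz12 overlapped exons of other-strand genes that are not in the matrices, Gm26625 and Gm26563. Whether the counting used strand is not given in the sources used here. The counts of Ezh2, Eed, Suz12, Mtf2 and Phf1 are therefore the less certain ones.

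The 250 bases before the RefSeq start of 4 members are printed to show the catalytic paralogs, which differed in their relation to Mki67 (below), beside the only members with an E2F match. The windows were read from RefSeq promoters on GRCm38.p6, at chr6:47595031-47595280 on the minus strand for Ezh2, chr11:101226464-101226713 on the minus strand for Ezh1, chr11:79992856-79993105 on the plus strand for Suz12 and chr2:34913977-34914226 on the minus strand for Phf19. The GENCODE model of Ezh2 begins upstream of its window and spans all of it, and that of Phf19 begins inside its window. Capitals mark matches on either strand to an E2F motif (TTTCCCGC, TTTCGCGC, TTTGCCGC or TTTGGCGC), to the cell-cycle homology region motif CHR (TTTGAA) or to CCAAT.
Ezh2: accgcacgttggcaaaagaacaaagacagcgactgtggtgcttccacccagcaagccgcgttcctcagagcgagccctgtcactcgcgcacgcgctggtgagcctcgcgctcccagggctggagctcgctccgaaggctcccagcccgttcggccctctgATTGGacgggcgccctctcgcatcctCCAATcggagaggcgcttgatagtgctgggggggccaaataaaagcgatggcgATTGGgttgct
Ezh1: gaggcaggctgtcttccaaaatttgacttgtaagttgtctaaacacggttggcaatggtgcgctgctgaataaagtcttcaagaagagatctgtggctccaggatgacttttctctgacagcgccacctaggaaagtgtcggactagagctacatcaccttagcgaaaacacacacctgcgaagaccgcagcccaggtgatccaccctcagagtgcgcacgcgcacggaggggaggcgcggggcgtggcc
Suz12: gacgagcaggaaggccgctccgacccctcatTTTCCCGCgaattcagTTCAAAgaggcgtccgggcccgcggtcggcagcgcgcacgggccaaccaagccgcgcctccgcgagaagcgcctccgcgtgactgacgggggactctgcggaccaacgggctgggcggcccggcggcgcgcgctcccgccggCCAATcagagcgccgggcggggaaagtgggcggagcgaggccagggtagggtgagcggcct
Phf19: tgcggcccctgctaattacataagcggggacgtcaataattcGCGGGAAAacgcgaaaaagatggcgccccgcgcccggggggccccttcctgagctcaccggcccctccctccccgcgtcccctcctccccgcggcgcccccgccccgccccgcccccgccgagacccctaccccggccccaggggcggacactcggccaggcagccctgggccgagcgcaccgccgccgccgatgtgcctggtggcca
The E2F motif was in the windows of Suz12 and Phf19 and in 1.86% of all 32851 promoters. CHR was in 16.0% of all promoters, and among the members in those of Eed, Suz12 and the second of Mtf2. CCAAT was in 33.8% of all promoters, with 3 matches in Ezh2 and 1 each in Suz12, Jarid2 and the second promoter of Mtf2. The windows of Ezh1 and Phf1 held none of these letters. A match is a description of the letters and not a binding site.

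The libraries held 74414511 (WT) and 81862096 (Ring1AKO) unique molecular identifiers (UMIs), which count transcripts near their 3′ ends. Barcodes with at least 1000 UMIs, at least 500 genes and under 5% mitochondrial UMIs were kept, 6005 in WT and 7918 in Ring1AKO, with medians of 6354 and 5035 UMIs. They were gated by single markers into B cells (Cd79a; 1141 and 3575 barcodes), plasma cells (Jchain; 617 and 612), T cells (Cd3e; 1532 and 1646), myeloid cells (Lyz2; 1060 and 465) and neutrophils (S100a8; 186 and 215). Barcodes that met gates of different lineages (272 and 421) were set aside, and 1197 and 984 met none. Each class carried all markers of its own list, and the 2 libraries shared 11 barcode sequences. Outside all gates, 5 markers of epithelium, stroma and endothelium summed to 587 CPM in WT and 341 CPM in Ring1AKO, and to at most 97.0 CPM in a gated class, although the labels name immune cells (CPM is the UMIs of a gene scaled to 1000000 UMIs). Ring1 itself was at 13.4 CPM (12.5 to 14.3) in WT and 11.8 CPM (11.02 to 12.7) in Ring1AKO, and a 3′ count does not check a deletion upstream.

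Levels are given as CPM of the summed UMIs of a class, with exact 95% Poisson intervals in parentheses. These and all other intervals cover counting error only and say nothing of the spread between mice. Together the 8 genes had 19747 UMIs in WT and 16947 in Ring1AKO, or 319 and 246 CPM. Since each library pooled all classes, the members were described class by class.

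Ezh2 was highest in T cells and B cells and lowest in neutrophils. In WT it was at 54.3 CPM (49.98 to 58.9) in T cells, 51.3 (45.7 to 57.3) in B cells, 19.2 (16.6 to 22.1) in myeloid cells, 14.0 (12.4 to 15.9) in plasma cells and 8.78 (3.79 to 17.3) in neutrophils. In Ring1AKO the order was the same, at 50.8 (46.8 to 55.0), 23.8 (21.6 to 26.1), 17.2 (13.2 to 22.1), 9.22 (7.92 to 10.7) and 6.43 (2.59 to 13.3) CPM. T and B cells overlapped in WT and stood apart in Ring1AKO. Cell-free barcodes, with under 100 UMIs, held Ezh2 at 31.4 and 19.5 CPM, above its level in myeloid, plasma and neutrophil barcodes of the same library.

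Ezh1 followed a similar order at lower counts. It was at 35.9 CPM (32.4 to 39.7) in WT T cells and 26.8 (22.8 to 31.3) in WT B cells, and at 25.5 (22.7 to 28.5) and 21.9 (19.8 to 24.2) in Ring1AKO. Myeloid cells held 12.0 and 8.06 CPM and plasma cells 9.45 and 4.48 CPM in WT and Ring1AKO. Neutrophils held only 9 and 3 UMIs of Ezh1.

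The core subunits Eed and Suz12 were also lymphocyte-rich. Eed was at 49.6 CPM (44.1 to 55.6) in WT B cells and 46.1 (42.1 to 50.4) in WT T cells, which overlapped, and at 43.6 (40.6 to 46.7) and 52.0 (48.0 to 56.3) in Ring1AKO, where T cells were higher. Suz12 was at 115 CPM (106 to 124) in B cells and 105 (99.0 to 111) in T cells of WT, and at 63.4 (59.8 to 67.2) and 63.3 (58.8 to 68.0) in Ring1AKO. In both libraries B and T cells overlapped for Suz12, and plasma cells were lowest, at 33.9 and 16.8 CPM.

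Jarid2 stood apart from the other members in being highest in myeloid cells. It was at 265 CPM (255 to 275) there in WT and 228 (213 to 244) in Ring1AKO, against 95.9 (88.2 to 104) and 76.5 (72.5 to 80.6) in B cells, the next class. Over all UMIs the ratio of highest to lowest class was 11.8 in WT and 16.1 in Ring1AKO, with plasma cells lowest in both. Outside all gates, barcodes with the dendritic-cell receptor gene Flt3 also held much Jarid2, at 138 CPM (126 to 151) in WT and 99.4 (88.5 to 111) in Ring1AKO.

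The Polycomb-like genes had 3 different patterns. Mtf2 was highest in B cells, at 122 CPM (113 to 131) in WT and 64.3 (60.7 to 68.1) in Ring1AKO, and T cells followed at 61.4 (56.8 to 66.2) and 47.1 (43.2 to 51.1). Phf19 had the fewest UMIs of the members and was highest in B cells, at 9.66 CPM (7.33 to 12.5) in B cells of WT and 4.80 (3.84 to 5.92) in those of Ring1AKO, where it overlapped T cells at 3.29 (2.34 to 4.50). Neutrophils held 1 UMI of Phf19 in WT and 0 of 1088055 UMIs in Ring1AKO. Phf1 was the only member whose highest class in WT was the neutrophils, at 52.7 CPM (38.9 to 69.9; 48 UMIs). That interval overlapped T cells at 44.2 (40.3 to 48.3) and held the 42.5 CPM of cell-free barcodes. In Ring1AKO Phf1 was highest in B cells, at 46.2 (43.1 to 49.4), which overlapped T cells at 43.9 (40.3 to 47.9). Neutrophils of Ring1AKO held 32.2 CPM, below the 43.8 CPM of cell-free barcodes. Among barcodes outside all gates, Phf1 was at 64.2 and 74.3 CPM in those with Il7r, the interleukin-7 receptor, and at 8.06 and 7.90 CPM in those with Flt3. Of the 8 members, 6 had the same highest class in both libraries, and the exceptions were Eed and Phf1.

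**Figure D1:**
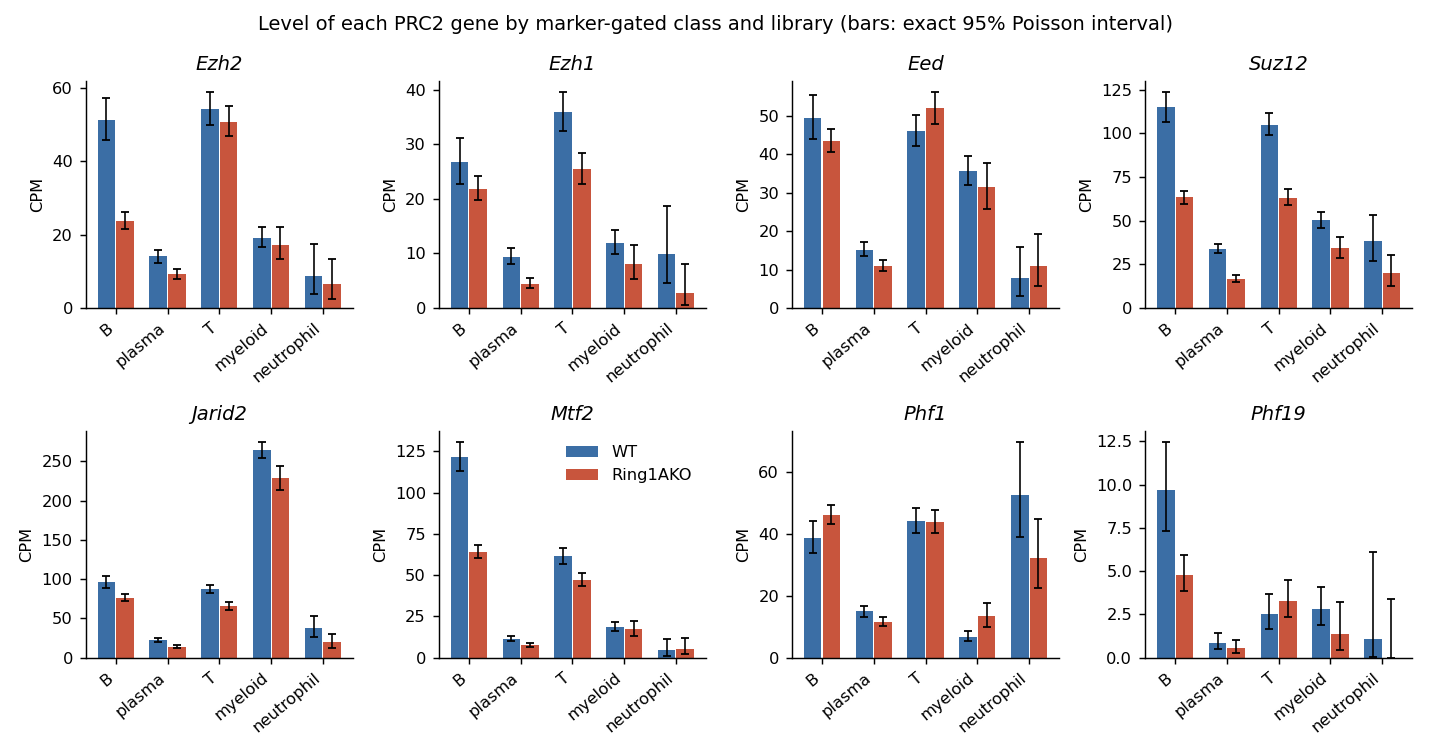
Level of each PRC2 gene in CPM (y axes, linear and different for each gene) in 5 marker-gated classes of the WT and Ring1AKO libraries, with exact 95% Poisson intervals as bars. Jarid2 peaked in myeloid cells in both libraries (265 and 228 CPM), while Mtf2 and Phf19 peaked in B cells.

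The low place of plasma cells depended on the scale. Immunoglobulin genes made up 57.1% of plasma-cell UMIs in WT and 64.8% in Ring1AKO, and plasma barcodes were deep, with medians of 27232 and 33482 UMIs. Counted per 100 barcodes, plasma cells of WT held 41.7 UMIs of Ezh2 against 26.99 in B cells, and 101 of Suz12 against 60.5. With immunoglobulin genes taken out of the total, plasma-cell Ezh2 was at 32.7 CPM in WT and 26.2 in Ring1AKO. On that scale plasma cells of WT and Ring1AKO held Suz12 at 79.0 and 47.7 CPM and Jarid2 at 52.4 and 40.2. They were then not the lowest class, since neutrophils held 38.7 and 20.4 CPM of each of these genes.

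The next comparison set barcodes with at least 1 UMI of Mki67, a proliferation marker, against those with none, within each class and library. Mki67-positive barcodes were 58 of 1141 in WT B cells and 72 of 3575 in Ring1AKO B cells (5.08% and 2.01%), 32.1% and 15.8% of plasma cells, 13.5% and 8.93% of T cells and 20.3% and 24.9% of myeloid cells. In neutrophils, mature cells that do not divide, they were 2.69% and 1.86%. The class medians ran from 4166 to 27232 UMIs in WT and from 4320 to 33482 in Ring1AKO, with neutrophils at 4463 and 4972. Thinned to 2000 UMIs a barcode, with 14 and 59 shallower B barcodes left out, the B-cell shares were 2.66% (1.80 to 3.78) and 0.967% (0.671 to 1.35). The thinned T-cell shares were 6.21% (5.06 to 7.54) and 3.12% (2.33 to 4.08), with 3 and 12 left out. Thinned plasma-cell shares were 6.68% (4.83 to 8.95) and 3.50% (2.15 to 5.36), with 3 and 41 left out. Those of myeloid cells were 7.51% (5.95 to 9.32) and 9.39% (6.79 to 12.6), with 61 and 39 left out. At 2000 UMIs in total the plasma-cell share of each library overlapped the T-cell share. Immunoglobulin genes held 57.1% and 64.8% of plasma-cell UMIs, against 0.588% and 0.612% of T-cell UMIs. Depth in the other genes was therefore not equal, and the overlap does not show equal shares of Mki67-positive cells. Between 41.4% and 62.5% of the Mki67-positive barcodes of these 4 classes had a single Mki67 UMI, and Mki67-positive barcodes were deeper than the others of their class. In WT B cells the medians were 12390 and 4110 UMIs.

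Ezh2 was higher in Mki67-positive B, plasma and T cells of both libraries. In WT B cells it was at 179 CPM (153 to 209; 164 UMIs) in Mki67-positive and 28.3 (23.8 to 33.3; 144 UMIs) in Mki67-negative barcodes, a log2 ratio of 2.67 (2.33 to 3.00). In Ring1AKO B cells the levels were 105 and 18.9 CPM, a log2 ratio of 2.48 (2.15 to 2.80). In T cells Ezh2 was at 98.2 against 41.3 CPM in WT, a log2 ratio of 1.25 (1.01 to 1.49), and at 132 against 30.5 CPM in Ring1AKO, a log2 ratio of 2.11 (1.87 to 2.35). In plasma cells the log2 ratios were 1.91 (1.53 to 2.30) in WT and 2.37 (1.93 to 2.81) in Ring1AKO. All 6 intervals lay above 0.

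Counted by a ratio of at least 2 and at least 30 UMIs over both states, 4 of 8 members were higher in Mki67-positive B cells of WT (Ezh2, Suz12, Mtf2 and Phf19), where 13.5% of all 8739 counted genes were. In Ring1AKO B cells 3 of 8 were (Ezh2, Mtf2 and Phf19), against 13.5% of 10201 genes. In plasma cells it was 1 of 7 in each library, Ezh2, against 6.57% of genes in WT and 12.1% in Ring1AKO. In T cells it was 1 of 7 in WT, Ezh2, against 6.48% of genes, and 2 of 8 in Ring1AKO, Ezh2 and Phf19, against 9.54%. In myeloid cells it was 0 of 7 and 0 of 6, against 1.62% and 2.32%. Outside B cells the count of members was thus Ezh2 alone in 3 of the 4 lymphoid groups. Depth differed between the states, and its part in these ratios was not tested. With at least 2 Mki67 UMIs asked for, the Ezh2 log2 ratios in B, plasma and T cells ranged from 1.71 to 3.20 over both libraries.

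The other core subunits had smaller ratios. The median log2 ratio of all counted genes was itself 0.34 in WT and 0.46 in Ring1AKO plasma cells, and between 0.0049 and 0.080 in B and T cells. Suz12 had log2 ratios between 0.54 and 1.02 in the 6 groups of B, plasma and T cells, and its interval lay above 0 in all 6. Eed had log2 ratios between 0.16 and 0.83, with the interval above 0 in 5 of 6. The exception was WT T cells, where Eed was at 50.1 CPM in Mki67-positive and 44.9 CPM in Mki67-negative barcodes. In plasma cells the Eed log2 ratios were 0.52 (0.16 to 0.87) in WT and 0.64 (0.19 to 1.08) in Ring1AKO, and both intervals held the median of all genes.

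Among the accessory subunits, Mtf2 and Phf19 were higher and Phf1 and Jarid2 lower in Mki67-positive B cells. Mtf2 was at 314 against 87.4 CPM in WT B cells, a log2 ratio of 1.84 (1.63 to 2.06), and at 158 against 58.7 CPM in Ring1AKO, 1.43 (1.18 to 1.67). In T cells the Mtf2 ratio was near even, with log2 values of -0.15 (-0.43 to 0.12) and 0.10 (-0.21 to 0.39). Plasma cells had Mtf2 log2 ratios of 0.83 (0.42 to 1.23) in WT and 0.92 (0.39 to 1.42) in Ring1AKO. The median of all counted genes there was 0.34 and 0.46, which the Ring1AKO interval held. Phf19 was at 40.5 against 4.12 CPM in WT B cells (37 and 21 UMIs) and at 20.5 against 3.86 CPM in Ring1AKO B cells (21 and 66 UMIs). These were log2 ratios of 3.29 (2.48 to 4.14) and 2.41 (1.63 to 3.14).

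Jarid2 was at 36.1 against 107 CPM in WT B cells, a log2 ratio of -1.56 (-2.12 to -1.06), and at 43.9 against 78.5 CPM in Ring1AKO, -0.84 (-1.30 to -0.41). In T cells it was at -0.11 (-0.34 to 0.12) in WT and -0.57 (-0.87 to -0.28) in Ring1AKO, and in plasma cells at 0.37 (0.08 to 0.66) and 0.38 (-0.04 to 0.78). Phf1 was lower in Mki67-positive barcodes in all 6 lymphoid groups, with log2 ratios between -1.44 and -0.12 and the interval below 0 in 5. In plasma cells its sign depended on the processing. Over the alternative settings it ranged there from -1.04 to 0.53 in Ring1AKO and from -0.46 to 0.05 in WT. In T cells Phf1 was at 26.1 against 49.5 CPM in WT and at 18.5 against 50.3 CPM in Ring1AKO. Ezh1, the paralog of Ezh2, had log2 ratios between -1.60 and 0.78, with the interval below 0 in 3 of 6 groups and above 0 in 1, plasma cells of Ring1AKO, where the interval of 0.06 to 1.46 held the median of all genes. In WT B cells Ezh1 was at 9.84 against 29.8 CPM, from 9 and 152 UMIs. In B cells of both libraries the PRC2.1 subunits thus differed among themselves, with Mtf2 and Phf19 on one side and Phf1 on the other.

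**Figure D2:**
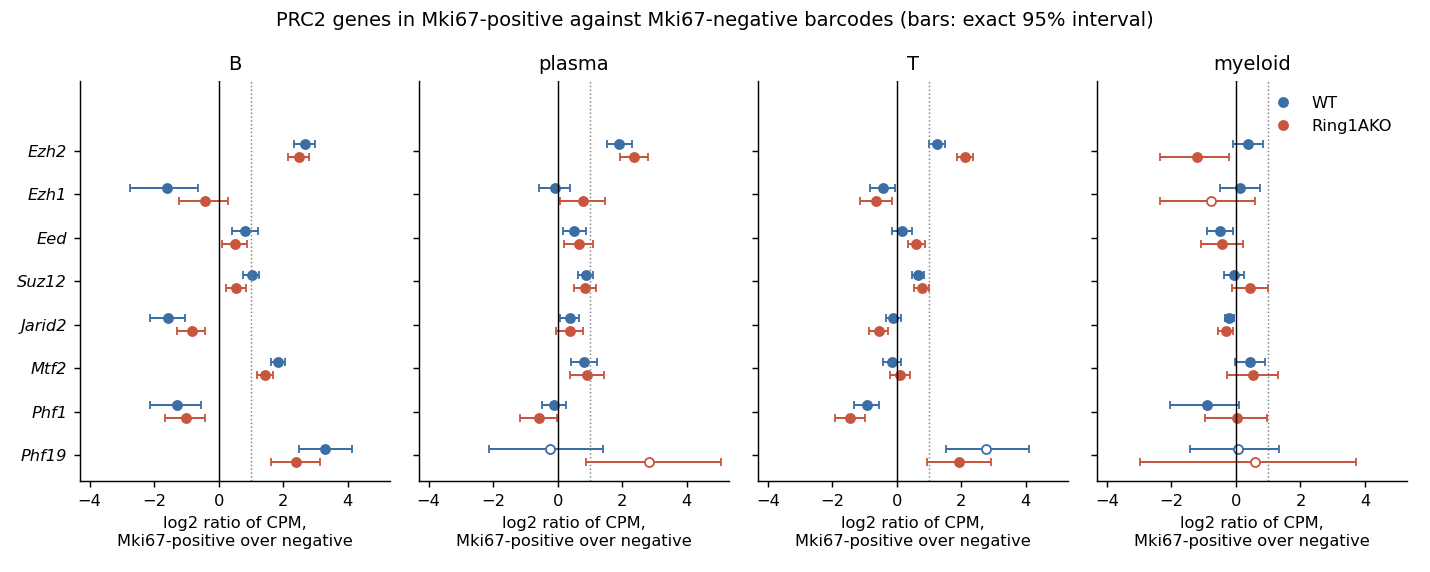
Log2 ratio of CPM of Mki67-positive over Mki67-negative barcodes (x axes) for each PRC2 gene (y axis) in 4 classes and both libraries, with exact 95% intervals as bars, open points for genes under 30 UMIs and a dotted line at a ratio of 2. Ezh2 lay to the right of the dotted line in B, plasma and T cells of both libraries and Phf1 to the left of 0.

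A list of 10 proliferation genes (Top2a, Cdk1, Birc5, Ube2c, Ccnb1, Pcna, Mcm5, Tyms, Rrm2 and E2f1) was read in the same barcodes. In B, plasma and T cells 9 or 10 of the 10 were at least 2-fold higher in Mki67-positive barcodes. Their summed level was 1638 against 151 CPM in WT B cells and 1722 against 243 CPM in Ring1AKO T cells. In myeloid cells 0 of 4 counted genes in WT and 0 of 2 in Ring1AKO passed that ratio, and the sums were 128 against 141 CPM and 218 against 201 CPM. The Mki67 gate therefore did not set apart barcodes rich in proliferation genes in the myeloid class, and there Ezh2 was at 23.2 against 17.9 CPM in WT and 9.08 against 20.8 CPM in Ring1AKO (10 and 52 UMIs).

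Within the Ezh1 and Ezh2 UMIs, the share of Ezh2 was set side by side by state. Capture can differ between the paralogs, so the share is compared between states and not with an even split. Over B, plasma and T cells it was 80.9% (exact binomial interval 77.8 to 83.7; 577 of 713 UMIs) in Mki67-positive and 49.5% (46.6 to 52.4; 572 of 1156) in Mki67-negative barcodes of WT. In Ring1AKO it was 86.0% (83.0 to 88.7; 522 of 607) and 49.6% (47.0 to 52.3; 692 of 1394). The Mki67-negative shares of the libraries thus overlapped when pooled over the 3 classes, which the libraries held in different parts. By class they were 48.6% in WT and 45.9% in Ring1AKO for B cells, and 52.0% and 52.6% for T cells. In plasma cells they were further apart, at 42.5% (35.6 to 49.7) and 56.3% (47.8 to 64.6). B cells of WT went furthest, from 48.6% to 94.8%. In T cells the Mki67-positive share was 77.7% (72.7 to 82.2) in WT and 88.2% (84.3 to 91.3) in Ring1AKO. The libraries differed in the part of these T-cell Ezh2 UMIs that came from Foxp3 barcodes (below). In myeloid cells the shares of both states overlapped in both libraries.

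**Figure D3:**
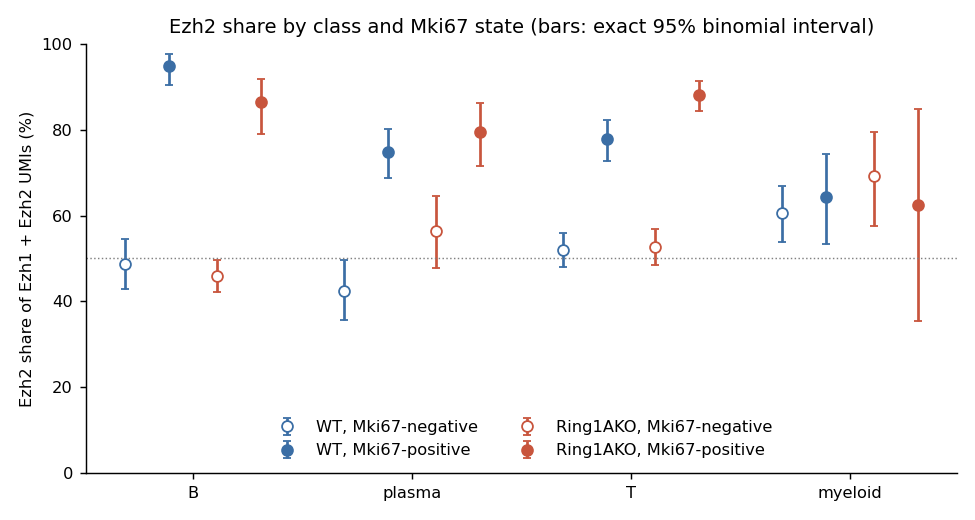
Ezh2 UMIs as a percent of Ezh1 and Ezh2 UMIs (y axis) by class (x axis), library (colour) and Mki67 state (filled positive, open negative), with exact 95% binomial intervals as bars. In B, plasma and T cells the positive barcodes lay above the negative ones in both libraries, and in myeloid cells they overlapped.

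The comparison of the libraries asked how the PRC2 genes stood in cells of Ring1AKO mice, which lack a PRC1 subunit. Ratios are Ring1AKO over WT, and a gene was counted with at least 30 UMIs over both libraries in the class. In B cells 4 of 8 members were lower by at least 1.5-fold, against 18.2% of all 10705 counted genes, and 0 were higher, against 5.21%. In plasma cells 5 of 7 were lower, against 28.6%, and 0 higher, against 2.83%. In T cells 1 of 8 was lower, against 11.9%, and 0 higher, against 5.75%. In myeloid cells 1 of 8 was lower, against 15.1%, and 1 higher, against 9.24%. The lower one was Phf19, from 28 and 5 UMIs, with a log2 ratio of -1.02 and an interval of -2.75 to 0.37 that held 0. In neutrophils all 3 members counted were lower, against 27.5%, and 0 higher, against 7.17%. Over the classes this was 15 of 34 counted ratios, 14 of them lower. The median of all counted genes was itself below 0 in every class, at log2 values of -0.17 in B cells, -0.33 in plasma cells, -0.05 in T cells, -0.09 in myeloid cells and -0.24 in neutrophils. Of the 34 ratios, 29 lay below the median of their class.

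Suz12 and Jarid2 were lower in Ring1AKO in all 5 classes with intervals below 0, Suz12 past 1.5-fold in 4 classes and Jarid2 in 2. The log2 ratios of Jarid2 were -0.33 in B cells, -0.67 in plasma cells, -0.41 in T cells, -0.21 in myeloid cells and -0.93 in neutrophils. That of Suz12 was -0.86 in B cells (115 to 63.4 CPM), -1.01 in plasma cells (33.9 to 16.8), -0.73 in T cells (105 to 63.3), -0.55 in myeloid cells (50.2 to 34.2) and -0.93 in neutrophils (38.4 to 20.2; 35 and 22 UMIs). In neutrophils the interval of both genes was -1.77 to -0.12, which held the median of all counted genes there, -0.24. In Mki67-negative barcodes alone Suz12 was at -0.68 in B cells, -0.86 in plasma cells, -0.74 in T cells and -0.72 in myeloid cells. In Mki67-positive barcodes it was -1.16 in B cells, -0.87 in plasma cells, -0.64 in T cells and -0.22 (-0.75 to 0.28) in myeloid cells. Both states thus pointed the same way for Suz12, with the interval of Mki67-positive myeloid cells reaching past 0. Jarid2 in Mki67-negative barcodes was at -0.44 in B cells, -0.61 in plasma cells, -0.33 in T cells and -0.17 in myeloid cells. In Mki67-positive ones Jarid2 was at -0.60 in plasma cells, -0.79 in T cells and -0.29 in myeloid cells. In Mki67-positive B cells it pointed the other way, at 0.28 (-0.40 to 0.98). These values by state, and those below, were computed after the values over all barcodes had been seen.

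Ezh2 was lower in B cells, by a log2 ratio of -1.11 (-1.32 to -0.89), and it was lower within each Mki67 state too. In Mki67-negative B cells the log2 ratio was -0.58 (-0.87 to -0.29), from 28.3 to 18.9 CPM, and in Mki67-positive ones -0.77 (-1.13 to -0.41). The part of B-cell UMIs held by Mki67-positive barcodes was 15.2% in WT and 5.65% in Ring1AKO, and its part in the ratio over all B cells was not tested. Phf19 had a log2 ratio of -1.01 over all B cells, -0.10 (-0.82 to 0.69) in Mki67-negative ones and -0.98 (-1.83 to -0.17) in Mki67-positive ones, where it was at 40.5 and 20.5 CPM. Mtf2 was at -0.92 over all B cells and -0.57 and -0.99 in Mki67-negative and Mki67-positive ones. Among Mki67-negative B cells 1 of 8 members was lower by at least 1.5-fold, Suz12, from 99.4 to 61.9 CPM, against 15.5% of 10442 genes, with Ezh2 and Mtf2 just inside that limit.

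In T cells Ezh2 differed between the libraries by state. Over all T cells it was at 54.3 and 50.8 CPM, a log2 ratio of -0.10 (-0.26 to 0.07). In Mki67-negative T cells it was lower in Ring1AKO, at 41.3 and 30.5 CPM with a log2 ratio of -0.44 (-0.67 to -0.21). In Mki67-positive T cells it was higher, at 98.2 and 132 CPM with 0.42 (0.18 to 0.67). Barcodes with Foxp3 (below) held 18 of the 241 Ezh2 UMIs of Mki67-positive T cells in WT and 175 of the 313 in Ring1AKO. They were 44 of 207 Mki67-positive T-cell barcodes in WT and 59 of 147 in Ring1AKO. Their Ezh2 level in WT was 42.4 CPM, below the 98.2 of all Mki67-positive T cells. In Ring1AKO it was 133 beside 132 CPM, so their part of the Ezh2 UMIs was near their part of all UMIs. The only T-cell member past 1.5-fold over all barcodes was Suz12. Eed was at 46.1 and 52.0 CPM, Jarid2 at 87.2 and 65.8, and Mtf2 at 61.4 and 47.1.

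T-cell barcodes were then split by a UMI of Foxp3, the factor of regulatory T cells, of Trdc, the gamma-delta T-cell receptor gene, or of Cd8a. In Foxp3 barcodes Ezh2 was at 35.6 CPM in WT (52 UMIs in 209 barcodes) and 82.7 CPM in Ring1AKO (218 UMIs in 236 barcodes). Mki67-negative Foxp3 barcodes held 32.8 CPM (22.7 to 45.8) and 32.6 (23.6 to 43.9), and Mki67-positive ones 42.4 (25.1 to 67.0; 44 barcodes) and 133 (114 to 154; 59 barcodes). The 10 proliferation genes summed to 958 CPM in these Mki67-positive barcodes of WT and 1942 in those of Ring1AKO, with medians of 8672 and 18710 UMIs, and their part in the difference was not tested. In Cd8a barcodes Ezh2 was at 154 (128 to 185) and 145 (113 to 183) CPM in Mki67-positive barcodes, which overlapped, and at 47.9 (39.7 to 57.2) and 27.1 (21.5 to 33.7) in Mki67-negative ones. Trdc barcodes overlapped in both states. The T-cell barcodes with none of these genes, the largest group, held Ezh2 at 80.1 (64.1 to 98.7) and 123 (92.4 to 160) CPM when Mki67-positive and at 43.1 (36.9 to 49.97) and 35.6 (29.98 to 42.01) when Mki67-negative, with overlap in both states and the directions of all T cells. Intervals that overlap do not show equal levels, and no interval of the ratio between the libraries was computed within these groups. This split was singled out after its values were seen.

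**Figure D4:**
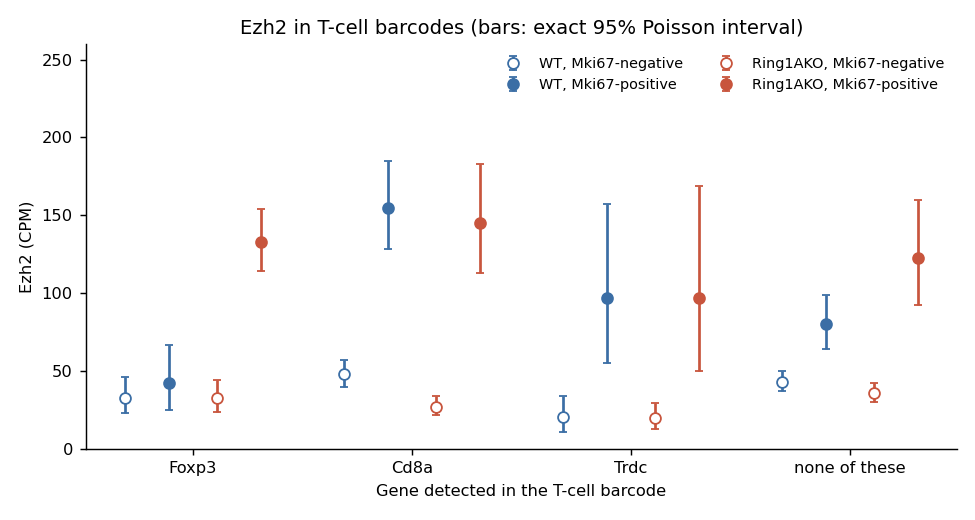
Ezh2 level in CPM (y axis) of T-cell barcodes by the gene detected (x axis), library (colour) and Mki67 state (filled positive, open negative), with exact 95% Poisson intervals as bars. Mki67-positive Foxp3 barcodes stood at 42.4 CPM in WT and 133 CPM in Ring1AKO, and the Mki67-negative ones overlapped.

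In plasma cells Ezh2, Ezh1, Suz12, Jarid2 and Mtf2 were the members lower by at least 1.5-fold, with log2 ratios of -0.61, -1.08, -1.01, -0.67 and -0.59. The immunoglobulin share of the total moved with them, at 57.1% and 64.8%. Without immunoglobulin genes in the total, the log2 ratios were -0.32 for Ezh2, -0.79 for Ezh1, -0.73 for Suz12, -0.38 for Jarid2 and -0.30 for Mtf2, so 2 of 7 members, Ezh1 and Suz12, were past 1.5-fold, against 12.1% of 10527 genes. As a mean over cells Ezh1 was at -0.53, inside 1.5-fold, and Mtf2 at 0.000399. Ezh1 was at 9.45 (8.09 to 10.96) and 4.48 (3.59 to 5.52) CPM over all UMIs.

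Phf1 was the only member higher in Ring1AKO by at least 1.5-fold in any class. In myeloid cells it was at 6.83 CPM (5.303 to 8.66; 68 UMIs) in WT and 13.3 (9.84 to 17.7; 48 UMIs) in Ring1AKO, a log2 ratio of 0.97 (0.40 to 1.52). Cell-free barcodes held Phf1 at 42.5 CPM in WT and 43.8 CPM in Ring1AKO, above both myeloid levels. With the same 5% of cell-free RNA taken away in both libraries the log2 ratio was 1.25, which does not cover an unequal share. In myeloid barcodes of WT and Ring1AKO the B-cell markers summed to 27.7 and 70.1 CPM and the T-cell markers to 12.8 and 33.1. Markers of epithelium, stroma and endothelium went the other way, at 12.6 and 11.7 CPM. The part of such RNA in the Phf1 ratio was not tested. In neutrophils Phf1 was lower, at 52.7 and 32.2 CPM with a log2 ratio of -0.71 (-1.38 to -0.05). In B cells it was at 38.8 and 46.2 CPM, 0.25 (0.04 to 0.47). Jarid2, high in myeloid cells, was at 265 and 228 CPM there, a log2 ratio of -0.21 (-0.33 to -0.10). Over the whole library Jarid2 had a log2 ratio of -0.70, and -0.37 once the Ring1AKO classes were weighted as in WT, where myeloid cells held 16.1% of UMIs against 5.21%. Mtf2, a B-cell-rich gene, went from -0.16 to -0.51 with the same weights, and B cells held 9.71% and 26.3% of UMIs.

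**Figure D5:**
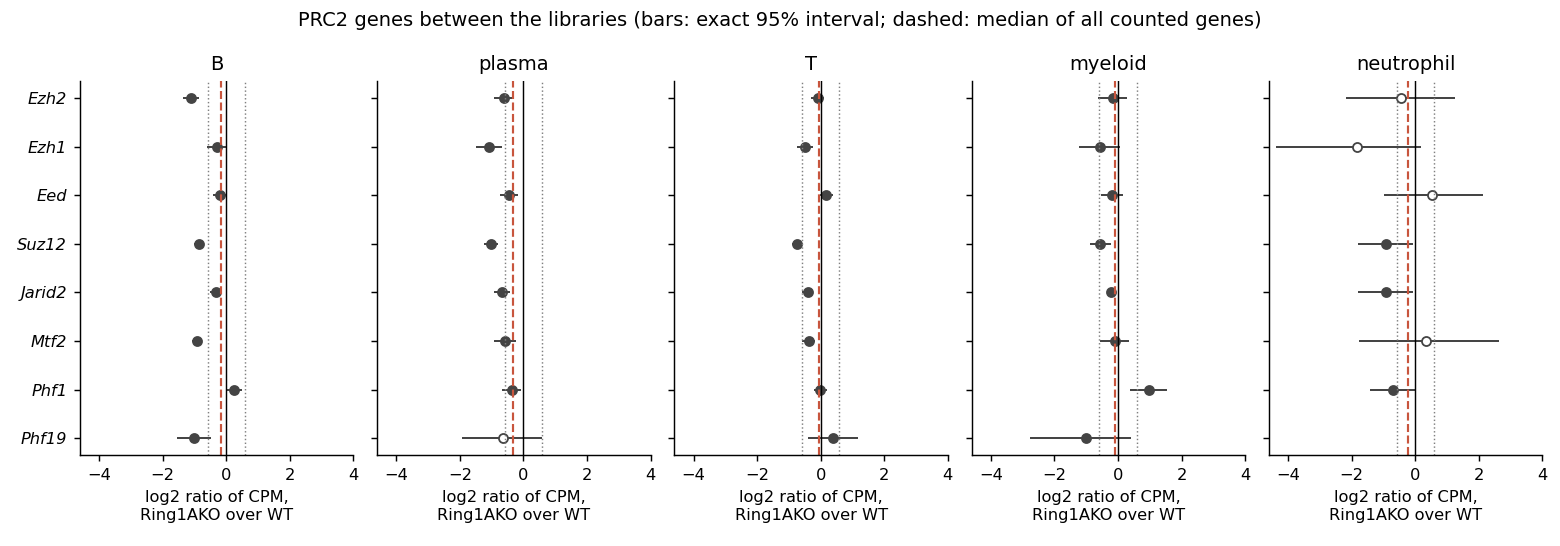
Log2 ratio of CPM of Ring1AKO over WT (x axes) for each PRC2 gene (y axis) in 5 classes, with exact 95% intervals as bars, open points for genes under 30 UMIs, dotted lines at 1.5-fold and a dashed line at the median of all counted genes. Suz12 lay left of 0 in all 5 classes, Ezh2 past the dotted line in B and plasma cells, and Phf1 right of it in myeloid cells; Phf19 in neutrophils, at 0 in Ring1AKO, is not drawn.

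Other genes of the pathway were read from a list of 9. It held the histone-binding core subunits Rbbp4 and Rbbp7 and the accessory subunits Aebp2 (PRC2.2) and Epop (PRC2.1). Lcor was listed for a product of the gene that belongs to PRC2.1, and a gene count does not separate its products. The others were the PRC2 inhibitor Ezhip, the H3K27 demethylases Kdm6a and Kdm6b, and the classical target Cdkn2a, an inhibitor of the cell cycle. Of the 32 counted ratios of these 9 genes between the libraries, 9 were lower by at least 1.5-fold and 2 higher. By class, 11.9% to 28.6% of all genes were lower and 2.83% to 9.24% higher, as given above. Lcor gave 5 of the 9, Kdm6a 3 and Cdkn2a 1. Of the 9, 3 were in plasma cells, and without immunoglobulin genes in the total Lcor was past 1.5-fold there at -1.23, while Kdm6a was at -0.45 and Cdkn2a at -0.33. Lcor was lower in all 5 classes, with log2 ratios between -1.64 and -0.60, and Kdm6a past 1.5-fold in 3 of 4, with 59.3 and 35.5 CPM in B cells. Rbbp4 was within 1.5-fold in all 5 classes, at 111 and 109 CPM in B cells. Epop was higher in B cells, at 1.998 CPM (12 UMIs) in WT and 5.41 CPM (98 UMIs) in Ring1AKO, a log2 ratio of 1.44 (0.57 to 2.44). Cdkn2a was at 10.97 and 7.18 CPM in plasma cells, lower, and at 2.23 and 3.80 CPM in T cells (24 and 45 UMIs), the other higher call. Ezhip had 0 UMIs in each of the 5 classes of both libraries.

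By likeness of pattern, each member was set against 4968 genes over 18 groups of class, Mki67 state and library, with Pearson's r of log2(CPM + 10). The groups share libraries and depth, so r is a description. The total held immunoglobulin genes, which lowers all other genes together in the plasma-cell groups. Phf19 had a mean of 5.62 CPM over the groups, under the added 10, so its r values are near the floor. Closest to Ezh2 were Incenp, Mcm4 and Dnmt1, with r = 0.98 for each, which serve chromosome segregation, replication licensing and the copying of DNA methylation. Closest to Suz12 were Baz1b, Pds5a and Pds5b (r from 0.96 to 0.97), the latter both cohesin regulators, and to Mtf2 Klhl6, Scaf11 and Bptf (r = 0.96 for each). Closest to Jarid2 were Stxbp3, Plekha1 and Tpp1 (0.95 to 0.96), to Eed Psmd9, Tmem183a and Txn2 (0.97 for each), to Ezh1 H2-Q4, Chaserr and Usp48 (0.94 to 0.96), to Phf1 Rnf167, Kdm5b and Khnyn (0.88 to 0.89) and to Phf19 Ddx19a, Gtf2a2 and Rfc2 (0.89 to 0.92). Among the members, Ezh2 had r = 0.87 with Suz12, 0.84 with Eed, 0.83 with Mtf2 and Phf19, 0.48 with Ezh1, 0.05 with Phf1 and 0.01 with Jarid2.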

How the data were processed

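Single-cell 3′ libraries of sorted colonic CD45+ cells were used, 1 per genotype. The authors deposited raw counts of UMIs by gene and barcode, with no barcode removed and no normalization. The header of the count files names Cell Ranger 4, the submitters' processing notes name Cell Ranger 6.0.2 with Seurat and mm39, and the paper names an earlier version and mm10, so the build of the counting is not certain. Whether cell-free RNA was corrected is not given in the sources used here, and the values were whole numbers.

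Gates, in UMIs per 10000 UMIs of the barcode, were Jchain at 50 for plasma cells, Cd79a at 5 for B cells, S100a8 at 50 for neutrophils, Lyz2 at 10 for myeloid cells, and Cd3e at 1 UMI for T cells. T cells were split by Foxp3, then Trdc, then Cd8a, and barcodes outside all gates by Cpa3, Ncr1, Flt3, then Il7r, at 1 UMI (Cpa3 at 1 per 1000). No doublet caller was run; barcodes of mixed lineage were set aside and a limit of 5000 genes was tried. UMIs were summed per class with Python 3.11.15, numpy 2.4.6, scipy 1.17.1 and pandas 2.3.3, and plotted with matplotlib 3.10.9. Poisson, Clopper-Pearson and conditional exact intervals at 95% were computed. No test was made, since cells are not replicates. On simulated B-cell counts, 95.0% of intervals of 200 genes changed 2-fold and 95.7% of those of 10505 unchanged genes held the true ratio. Those counts were drawn with Poisson error only, as the intervals assume, so this says nothing of the spread between cells or mice.

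Named genes were the 8 members, the 9 pathway genes, the 10 proliferation genes and, for each member, the 3 genes with the highest r among those with a mean of at least 20 CPM, leaving out genes of immunoglobulins and variable segments of T-cell receptors. The members and lists were chosen with earlier results of these data known. The alternatives were other limits on barcodes and genes, gates halved and doubled, a mean over cells, a total without immunoglobulin genes, 5% cell-free RNA taken away, Mki67 at 2 UMIs, Top2a for Mki67, and the class median taken away. Mki67-negative barcodes alone were added after the data were seen.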

Additional observations from a re-analysis of the deposited data

Results flagged for a closer look

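The contrast of Ezh2 between Mki67-positive and Mki67-negative barcodes had opposite directions in different classes of the Ring1AKO library. Its log2 ratio was 2.48 in B cells, 2.37 in plasma cells and 2.11 in T cells, and -1.20 in myeloid cells, from 10 and 52 UMIs. With Top2a in place of Mki67 the myeloid value was -0.46. The Mki67 gate did not set apart myeloid barcodes rich in proliferation genes, which summed to 218 against 201 CPM in Ring1AKO. In WT myeloid cells the Ezh2 log2 ratio was 0.37 (-0.11 to 0.83). The difference between the classes was not tested, since each has 1 library.

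Phf1 between the libraries had opposite directions in 2 classes. The log2 ratio of Ring1AKO over WT was 0.97 in myeloid cells, from 68 and 48 UMIs, and -0.71 in neutrophils, from 48 and 35 UMIs, and this difference was not tested either. The neutrophil interval, -1.38 to -0.05, held the median of all counted genes in that class, -0.24. Exons of Phf1 overlap those of Cuta on the other strand.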

How the results depend on the processing

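No paired analysis was possible because no result came from a test and each genotype had 1 library. Over the alternatives, the count of members past 1.5-fold between the libraries ranged from 10 to 18 (15 as reported), the count at least 2-fold higher in Mki67-positive cells from 9 to 16 (12), and the members with the same highest class from 5 to 7 (6). Of 1166 values under an alternative, 1078 stayed within their counting interval (counts of members, within 1.5 times), 87 moved further, and 1 ratio past its fold changed sign. The plasma-cell Mtf2 ratio of Ring1AKO over WT was 0.000399 on the log2 scale as a mean over cells.

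The Ezh2 share in Mki67-positive B, plasma and T cells was 77.6% (WT) and 82.6% (Ring1AKO) under 5000 genes, 77.6% (WT) with gates doubled, 86.5% and 91.0% with Mki67 at 2 UMIs, and in Ring1AKO 82.1% with Top2a and 80.0% as a mean over cells, where its Mki67-negative share was 46.4%. The Ezh2 log2 ratio in Ring1AKO T cells was 1.86 under 5000 genes, 1.67 as a mean over cells and 2.36 with Mki67 at 2 UMIs. In WT T cells it was 0.89 as a mean over cells, under the 2-fold limit, and 1.71 with Mki67 at 2 UMIs. In Ring1AKO plasma cells it was 1.60 with gates doubled, 1.90 without immunoglobulin genes, 3.20 with Mki67 at 2 UMIs and 1.91 with the class median taken away, and in WT plasma cells 2.42 with Mki67 at 2 UMIs. In Ring1AKO B cells it was 2.82 with Mki67 at 2 UMIs and 2.09 with Top2a. The cause was not tested. Neutrophil values and Phf19 rest on few UMIs.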

Other observations

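In the barcodes with Flt3 outside all gates, chosen after their values were seen, Ezh2 was at 121 CPM (105 to 139) in Mki67-positive and 51.7 (41.8 to 63.3) in Mki67-negative barcodes of WT, and at 70.4 (56.3 to 87.0) and 51.7 (41.8 to 63.3) in those of Ring1AKO. The proliferation genes summed to 1110 and 498 CPM in the Mki67-positive barcodes of WT and Ring1AKO. Jarid2 in these barcodes was at 127 and 149 CPM in WT and 94.2 and 103 CPM in Ring1AKO, in Mki67-positive and Mki67-negative barcodes.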
